A study of Gallus gallus with 6 samples.

Results

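The genes described are 9 chicken Toll-like receptors (TLR1A, TLR1B, TLR2A, TLR2B, TLR3, TLR4, TLR5, TLR7 and TLR15) and MYD88, the adaptor protein that carries the signal of most of them. They were taken by gene symbol, and all 10 were found among 15656 genes with a usable symbol. RNA was sequenced from jejunal mucosa, the lining of the middle small intestine, of breeder hens aged 28 weeks. The heat-adapted group was of the Leuang Hang Kao breed and the heat-sensitive group of the SUT breed, each with 3 libraries, and each library was made from the pooled RNA of 4 hens. The breeds are those of the labels, while the design text describes a random assignment of hens to the groups, and this difference could not be settled here. Hens of both groups had been held at 36 °C for 6 h, and no unheated hens were sequenced, so breed and heat tolerance cannot be told apart and a response to heat within a breed was not measured. The SD and p-values below measure the spread between pools, not between single hens.

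Toll-like receptors recognise molecules that are typical of microbes. Those on the cell surface bind parts of bacterial or fungal walls and flagella, and those in endosomes, the vesicles that take up outside material, bind nucleic acids. Each receptor has an inner TIR domain that recruits an adaptor. MYD88 then assembles IRAK kinases and TRAF6 and activates the transcription factor NF-kappaB, while TLR3 signals through the adaptor TICAM1 and leads mainly to interferon. In the intestine, receptors are carried both by epithelial cells and by macrophages, granulocytes and lymphocytes below the epithelium.

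Levels are FPKM, fragments per kilobase of gene scaled to library size, as deposited by the authors, and can be compared between genes. Library totals of the read counts were 10829957 to 13070796, but the counts stood in another row order than the gene symbols, so no read count could be placed beside a receptor and the counting error of a single FPKM value is not known. For 127 other genes whose counts were found through the heat-sensitive libraries, log2 read count minus log2 FPKM had an SD over genes of 0.768 to 1.02 in the heat-adapted columns and 0.000981 to 0.00162 in the heat-sensitive ones. The pairs were chosen because their heat-sensitive counts and FPKM agreed within 0.006 on the log2 scale, so the small heat-sensitive SD was fixed by that choice. Within these pairs, counts and FPKM with the same heat-adapted label were not proportional to each other. How many of the pairs were wrong was not measured, and wrong pairs would also not be proportional. Which of the count and FPKM columns hold the labelled heat-adapted libraries is not known. Every difference below rests on the FPKM columns being labelled correctly. Intestinal identity was plain in every library: summed FPKM of 17 enterocyte markers was 38360 to 55608 in heat-adapted and 23112 to 46118 in heat-sensitive libraries, and none of them was at 0. Heat-sensitive replicate 2 stood apart by HSPA2, a heat shock protein gene, at 2889 FPKM, against 51 to 63.1 in the heat-adapted and 143 and 165 in the other heat-sensitive libraries.

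MYD88 was the most abundant of the 10 genes in every library and TLR3 the next. MYD88 averaged 18.1 ± 5.04 FPKM (SD, n = 3) in the heat-adapted pools and 18.3 ± 2.73 FPKM (n = 3) in the heat-sensitive pools. TLR3 averaged 11.6 ± 2.35 FPKM in the heat-adapted pools and 7.89 ± 3.12 FPKM in the heat-sensitive pools. TLR1B, TLR1A and TLR2A came next by group mean, between 2.51 and 5.19 FPKM, and their order changed between libraries. TLR4 and TLR7 had group means between 1.54 and 2.63 FPKM and TLR5 had 1.08 and 1.24 FPKM. TLR2B and TLR15 were lowest, with group means between 0.52 and 0.863 FPKM, and their values overlapped each other within each group. In both groups the values of TLR1B overlapped those of TLR1A, those of TLR1A overlapped those of TLR2A, and those of TLR4 overlapped those of TLR7.

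**Figure D1:**
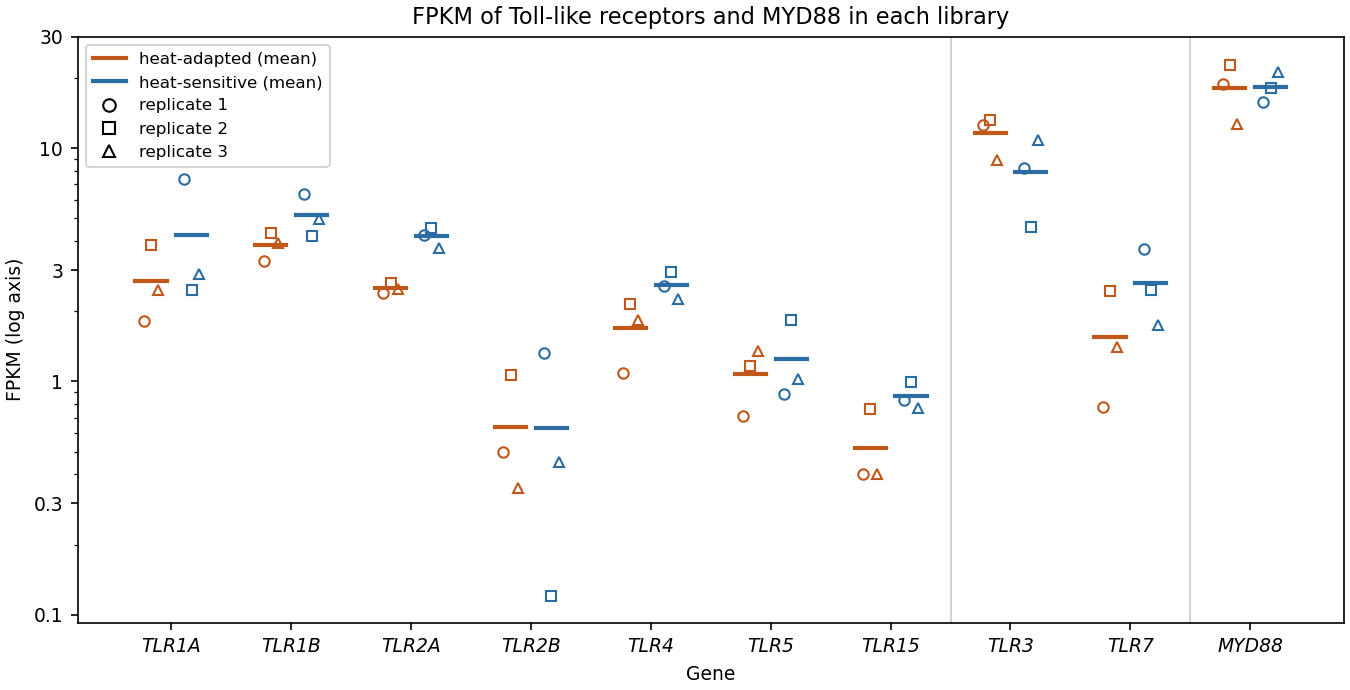
FPKM on a log axis of each of the 10 genes in every library, heat-adapted left of heat-sensitive, with surface receptors, endosomal receptors and MYD88 separated by grey lines. Symbols are libraries and bars are group means. The groups of TLR2A lie apart, at 2.4 to 2.64 and at 3.74 to 4.55 FPKM, while MYD88 averages 18.1 and 18.3 FPKM.

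The comparison between the breeds asked whether the heat-adapted jejunum held a different set of pathogen sensors under heat. None of the 10 genes differed past the threshold of an adjusted p of 0.05, by limma on log2(FPKM + 1) over the 11587 genes whose mean FPKM was at least 1. Of all genes tested, 0.0949% passed. TLR2B and TLR15 lay below that mean, so 8 of the 10 were in this test, and for these 2 the fit without a filter on 15656 genes was used. An unadjusted p below 0.05 was reached by 1 of the 8, TLR2A, which was lower, where 10.9% of all genes were lower at that level. Groups did not overlap in 2 of the 8, TLR2A and TLR4, both lower, where 12.9% of all genes had heat-adapted values wholly below the heat-sensitive ones. The median log2 difference of the 8, heat-adapted minus heat-sensitive, was -0.38, beside -0.06 for all genes tested. It lay between -0.49 and -0.21 with each library left out in turn, nearest to 0 without heat-sensitive replicate 1. With the filter at a mean FPKM of at least 5 only TLR3 and MYD88 remained, and their median was 0.25. The negative median therefore rests on receptors below that level. Of the 8 tested, 7 were below 0, where 58.3% of all genes tested were. With TLR2B and TLR15 added to the 8, the median was -0.32 and 8 of the 10 were below 0.

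TLR2A, which pairs with TLR1 proteins to recognise bacterial lipoproteins, had the smallest p of the 10. It stood at 2.4, 2.64 and 2.48 FPKM in the heat-adapted libraries, against 4.26, 4.55 and 3.74 FPKM in the heat-sensitive ones. The replicates of each breed lay close together and the highest heat-adapted pool was well below the lowest heat-sensitive one. The difference in log2(FPKM + 1) was -0.56 (SE 0.16, 95% CI -0.93 to -0.19), with an unadjusted p of 0.00745 and a limma adjusted p of 0.157. Without each library in turn the difference lay between -0.62 and -0.51, and the groups also did not overlap after rescaling to TPM or by median of ratios.

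TLR2B is the neighbouring gene of TLR2A in RefSeq's gene order for assembly GRCg7b, where it is listed as TLR2, and arose with it by duplication. It stood at 0.5, 1.07 and 0.35 FPKM in the heat-adapted libraries, against 1.32, 0.12 and 0.45 FPKM in the heat-sensitive ones. Its values were scattered within both breeds, and the difference was 0.051 (95% CI -0.61 to 0.71, limma adjusted p = 0.961 in the fit without a filter). How reads shared by such copies were counted was not stated in the sources used here, so the division of reads between TLR2A and TLR2B is uncertain. Their summed FPKM was 2.9, 3.71 and 2.83 in the heat-adapted libraries, against 5.58, 4.67 and 4.19 in the heat-sensitive ones. These sums did not overlap, but after rescaling to TPM they did, at 3.2 to 4.76 in heat-adapted and 4.69 to 6.22 in heat-sensitive libraries. Fitted as 1 gene, a choice made after the values were seen, the pair differed by -0.49 (SE 0.18, limma adjusted p = 0.218).

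TLR1A and TLR1B, the partners of the TLR2 proteins, are also neighbouring copies. TLR1A stood at 1.82, 3.83 and 2.47 FPKM in the heat-adapted libraries, against 7.38, 2.47 and 2.89 FPKM in the heat-sensitive ones. Heat-sensitive replicate 1 was far above all others and the remaining values overlapped. The difference was -0.42 (SE 0.35, limma adjusted p = 0.549), and -0.023 without that library. TLR1B stood at 3.27, 4.32 and 3.91 FPKM in the heat-adapted libraries, against 6.38, 4.19 and 4.99 FPKM in the heat-sensitive ones. Here too heat-sensitive replicate 1 was highest and the groups overlapped, with a difference of -0.35 (SE 0.19, limma adjusted p = 0.363), or -0.21 without it. The summed FPKM of the pair was 6.54 ± 1.54 (SD, n = 3) in the heat-adapted pools and 9.43 ± 3.8 (n = 3) in the heat-sensitive pools, with overlap.

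TLR4, the receptor for bacterial lipopolysaccharide, stood at 1.09, 2.15 and 1.84 FPKM in the heat-adapted libraries, against 2.56, 2.94 and 2.25 FPKM in the heat-sensitive ones. The heat-adapted values were all lower, by a narrow margin, and the groups overlapped after rescaling to TPM. The difference was -0.43 (SE 0.21, 95% CI -0.90 to 0.04, limma adjusted p = 0.312), and -0.26 without heat-adapted replicate 1, the lowest library. TLR5, which binds flagellin, the protein of bacterial flagella, stood at 0.71, 1.17 and 1.35 FPKM in the heat-adapted libraries, against 0.88, 1.83 and 1.02 FPKM in the heat-sensitive ones. Its groups overlapped and its difference of -0.10 (95% CI -0.61 to 0.41, limma adjusted p = 0.847) turned positive with quantile normalization, with heat-adapted replicate 1 left out and with heat-sensitive replicate 2 left out. TLR15, a receptor of birds and reptiles that responds to microbial proteases, stood at 0.4, 0.76 and 0.4 FPKM in the heat-adapted libraries, against 0.83, 0.99 and 0.77 FPKM in the heat-sensitive ones. Its groups were separated by the smallest step of 0.01 FPKM that the file records, and overlapped after rescaling to TPM. In the fit without a filter its difference was -0.30 (SE 0.12, unadjusted p = 0.0436, limma adjusted p = 0.314).

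TLR3, the endosomal receptor for double-stranded RNA, was the tested member with a positive difference. It stood at 12.61, 13.18 and 8.86 FPKM in the heat-adapted libraries, against 8.25, 4.6 and 10.81 FPKM in the heat-sensitive ones. Heat-sensitive replicate 2 was far lowest, and heat-adapted replicate 3 lay below heat-sensitive replicate 3, so the groups overlapped. The difference was 0.55 (SE 0.27, 95% CI -0.07 to 1.16, limma adjusted p = 0.325), and it was 0.25 without heat-sensitive replicate 2, the library with the high HSPA2. TLR7, the endosomal receptor for single-stranded RNA, stood at 0.78, 2.44 and 1.41 FPKM in the heat-adapted libraries, against 3.69, 2.47 and 1.74 FPKM in the heat-sensitive ones. Its groups overlapped, with a difference of -0.53 (SE 0.29, limma adjusted p = 0.357), or -0.33 with heat-sensitive replicate 1 left out and -0.30 with heat-adapted replicate 1 left out. TLR21, which senses microbial DNA in chickens and was not among the 10 genes, stood at 8.13 ± 1.18 FPKM (SD, n = 3) in the heat-adapted pools and 6.98 ± 2.3 FPKM (n = 3) in the heat-sensitive pools, a difference of 0.23 (SE 0.22, limma adjusted p = 0.627).

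MYD88 stood at 18.77, 22.71 and 12.7 FPKM in the heat-adapted libraries, against 15.68, 18.1 and 21.13 FPKM in the heat-sensitive ones. The heat-adapted libraries held both the highest and the lowest value. The difference was -0.045 (SE 0.21, 95% CI -0.52 to 0.43, limma adjusted p = 0.933), an interval that holds changes of either sign, and its sign turned with rescaling to TPM or by median of ratios.

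**Figure D2:**
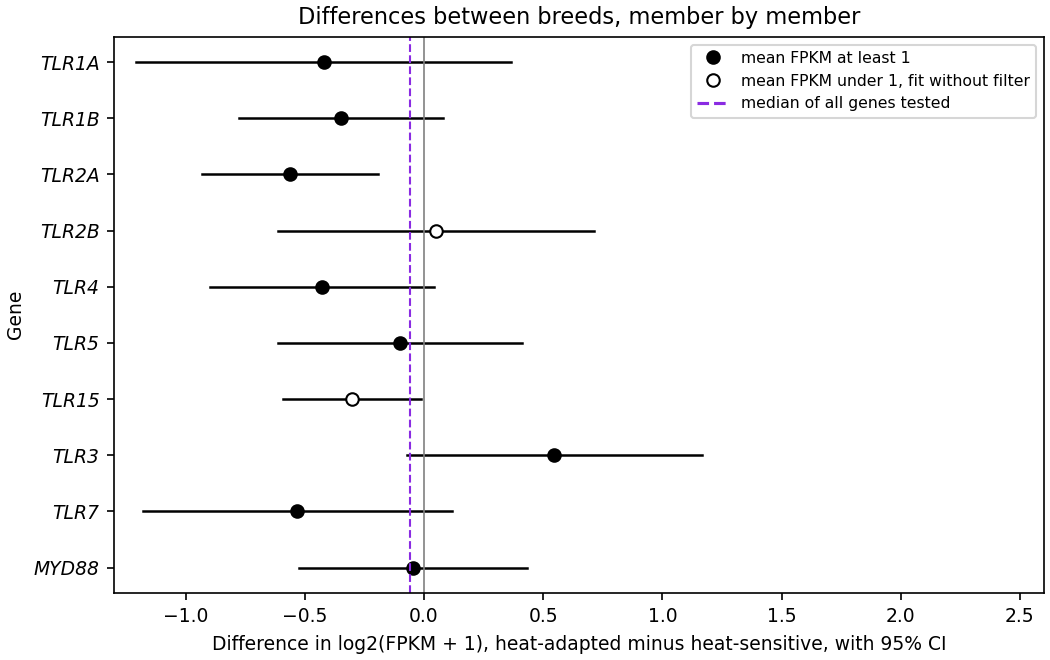
Difference in log2(FPKM + 1), heat-adapted minus heat-sensitive, for each gene, with the 95% confidence interval from limma as a bar. The dashed line is the median of all genes tested, -0.06. TLR2A, at -0.56, and TLR15, at -0.30 in the fit without a filter, are the genes whose interval leaves out 0, and neither passed after adjustment.

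The makeup of the receptor set was described by sums within each library, chosen after the values were seen. The 7 surface receptors (TLR1A, TLR1B, TLR2A, TLR2B, TLR4, TLR5 and TLR15) summed to 10.19, 15.94 and 12.8 FPKM in the heat-adapted libraries, against 23.61, 17.09 and 16.11 FPKM in the heat-sensitive ones. The groups lay apart by a narrow margin, and overlapped after rescaling to TPM, at 12.7 to 20.5 in heat-adapted and 18 to 26.3 in heat-sensitive libraries. TLR3 and TLR7 together summed to 13.1 ± 2.69 FPKM (SD, n = 3) in the heat-adapted pools and 10.5 ± 3 FPKM (n = 3) in the heat-sensitive pools, with overlap. TLR3 made up 53.5%, 41.8% and 38.4% of the summed FPKM of the 9 receptors in the heat-adapted libraries, against 23.2%, 19% and 37.7% in the heat-sensitive ones. This share does not depend on the scaling of the libraries, and its groups were separated by a margin much smaller than the spread within them. It does depend on which receptors are summed. TLR21, left out of the sum, stood at 7.04, 7.95 and 9.39 FPKM in the heat-adapted libraries, against 6.7, 9.41 and 4.84 FPKM in the heat-sensitive ones. With TLR21 in the sum, the TLR3 shares of the groups overlap. The ratio of TLR3 to TLR2A was 5.25, 4.99 and 3.57 in the heat-adapted libraries, against 1.94, 1.01 and 2.89 in the heat-sensitive ones. It joins the tested members with the highest and the lowest difference, and TLR2A alone already lay apart. Its lack of overlap was favoured by that choice and is not a further separation.

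**Figure D3:**
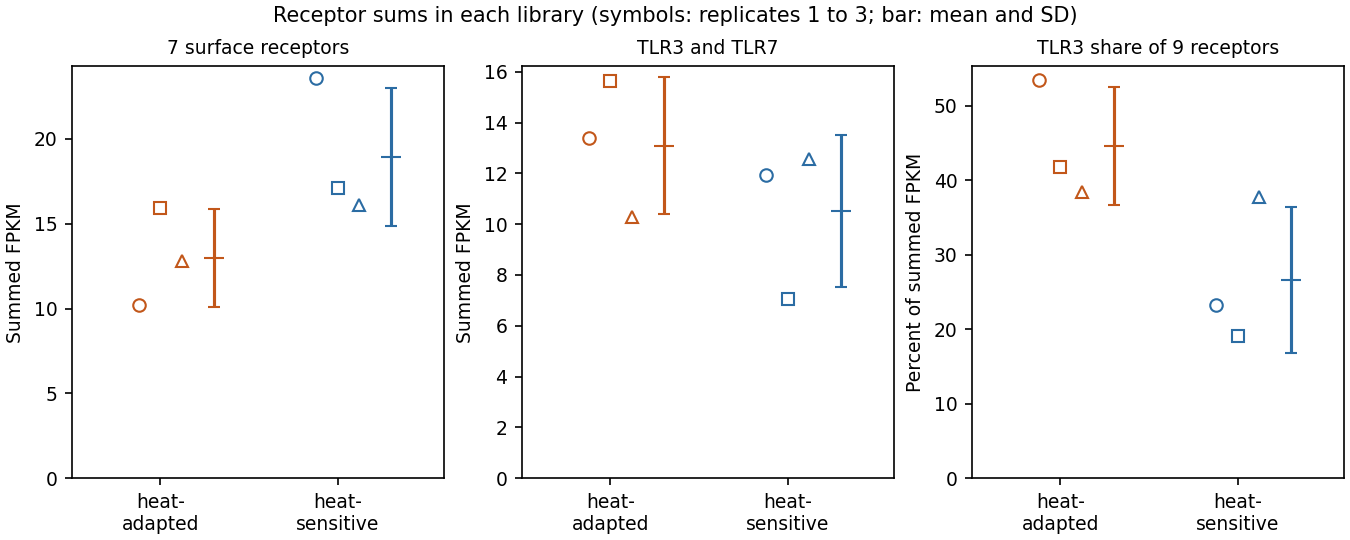
Summed FPKM of the 7 surface receptors, summed FPKM of TLR3 and TLR7, and TLR3 as a percentage of the summed FPKM of the 9 receptors, per library, with mean and SD to the right of each group. The heat-adapted surface sums reach 15.94 and the lowest heat-sensitive sum is 16.11 FPKM. The heat-adapted TLR3 share is 38.4% or more and the heat-sensitive share 37.7% or less. TLR21 is left out of all these sums, and with it the TLR3 shares overlap.

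Genes that act with the receptors were read from 4 lists with 92 genes, of which 88 were in the file and 81 were tested. None passed after adjustment by limma (lowest adjusted p = 0.0839). At an unadjusted p below 0.05 there were 7 higher and 7 lower genes, 17.3% of the 81, where 18.0% of all genes were at that level in either direction. The counts of lower genes in each list below stand beside 58.3% of all genes tested with a difference below 0.

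Among proteins that fold, carry or help the receptors, 6 of 12 tested genes were higher and 6 lower, with a median log2 difference of -0.0031. The list also held the receptor TLR21 and the restraining proteins SIGIRR and RNF170. These were among the 6 higher genes, at 0.23, 0.065 and 0.11, and the median without them was not computed. HSP90B1, the chaperone that folds Toll-like receptors in the endoplasmic reticulum, stood at 339.68, 337.06 and 267.02 FPKM in the heat-adapted libraries, against 421.47, 526.59 and 405.66 FPKM in the heat-sensitive ones, without overlap (difference -0.52, SE 0.17, limma adjusted p = 0.196). LY96, the partner with which TLR4 binds lipopolysaccharide, stood at 14.64, 21.32 and 22.78 FPKM in the heat-adapted libraries, against 34.31, 23.3 and 29.55 FPKM in the heat-sensitive ones (difference -0.55, SE 0.20, limma adjusted p = 0.217). The gap between the LY96 groups was narrow, and like those of TLR4 they overlap after rescaling to TPM. Of the 12 genes, 3 were lower without overlap, where 12.9% of all genes tested were. Another 1 was higher without overlap, and the share of all genes that were higher in this way was not computed. CD36, a fatty acid and lipoprotein receptor that assists TLR2, had a difference of 0.86 (SE 0.31, limma adjusted p = 0.217) and overlapped. CD14, which hands lipopolysaccharide to TLR4, and UNC93B1, which carries endosomal receptors, were looked up for their role and had differences of -0.28 and 0.21 (limma adjusted p = 0.44 and 0.505).

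Among adaptors and kinases, 11 of 28 tested genes were higher and 17 lower, with a median log2 difference of -0.15. The list also held other proteins, such as the transcription factors IRF5, IRF7, FOS and JUN and the ubiquitin enzymes UBE2N and UBE2V1. IRAK4, the first kinase to join MYD88, stood at 18.57, 17.74 and 23.46 FPKM in the heat-adapted libraries, against 16.69, 12.51 and 12.63 FPKM in the heat-sensitive ones (difference 0.49, SE 0.17, limma adjusted p = 0.201). IRAK2, a later kinase of the same complex, stood at 19.06, 20.98 and 20.92 FPKM in the heat-adapted libraries, against 30.73, 29.38 and 22.17 FPKM in the heat-sensitive ones (difference -0.40, SE 0.15, limma adjusted p = 0.232). In FPKM the groups overlapped for neither kinase, and the 2 lay in opposite directions. After rescaling to TPM the IRAK2 groups overlap and the IRAK4 groups do not. Of the 28 genes, 6 were lower without overlap, where 12.9% of all genes tested were. Another 2 were higher without overlap, again with no share of all genes to set beside them. RIPK1, a kinase shared with the TICAM1 and death receptor routes, had a difference of 0.55 (SE 0.21, limma adjusted p = 0.232). TICAM1, TIRAP, TRAF6 and IRF7 were looked up for their role, as was IRAK4. TICAM1 had a difference of 0.14 (95% CI -0.20 to 0.49). TIRAP, the adaptor that links TLR2 and TLR4 to MYD88, had 0.07 (95% CI -0.25 to 0.39). TRAF6 had 0.06 (95% CI -0.25 to 0.38) and IRF7 had 0.29 (95% CI -0.20 to 0.78).

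Among genes that restrain the pathway, 5 of 15 tested were higher and 10 lower, with a median log2 difference of -0.033. The smallest p were those of IRF4, which competes for MYD88 and is also a lymphocyte factor (difference -0.42, SE 0.19, limma adjusted p = 0.275), TNIP1 (-0.31, SE 0.22, limma adjusted p = 0.484) and NFKBIZ (-0.40, SE 0.28, limma adjusted p = 0.484). Among NF-kappaB subunits and genes that the pathway switches on, 14 of 26 tested were higher and 12 lower, with a median of 0.043. The antiviral gene MX1 stood at 26.67, 28.65 and 22.94 FPKM in the heat-adapted libraries, against 12.59, 8.24 and 15.91 FPKM in the heat-sensitive ones (difference 1.07, SE 0.22, limma adjusted p = 0.0839). IFIT5, another interferon-induced gene, had a difference of 0.63 (SE 0.22, limma adjusted p = 0.199). IL8L2, a chemokine that attracts granulocytes and is induced through NF-kappaB, stood at 1.52, 1.46 and 1.93 FPKM in the heat-adapted libraries, against 3.01, 2.16 and 4.33 FPKM in the heat-sensitive ones (difference -0.63, SE 0.22, limma adjusted p = 0.208).

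**Figure D4:**
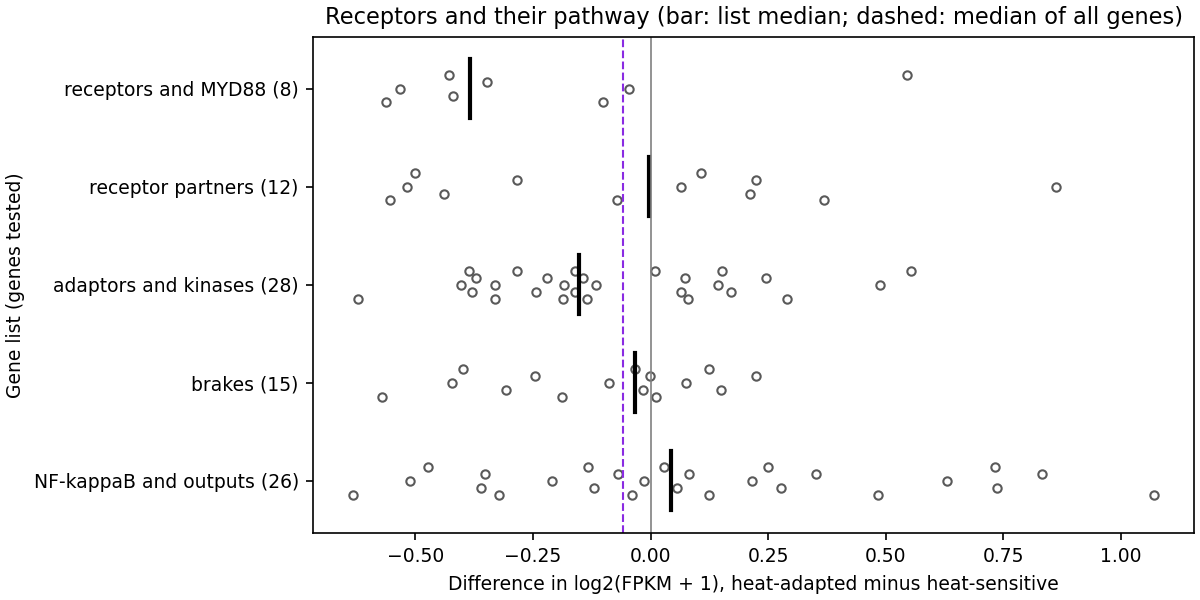
Difference in log2(FPKM + 1), heat-adapted minus heat-sensitive, of each tested gene (circles) in 5 lists, with the list median as a black bar and the median of all genes, -0.06, dashed. The 8 tested members lie between -0.56 and 0.55, and the 4 pathway lists have medians of -0.0031, -0.15, -0.033 and 0.043.

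Cell type markers were summed in each library beside the receptors. The counts of lower markers stand beside 58.3% of all genes tested with a difference below 0. In bulk tissue, fewer cells of a type and less RNA per cell cannot be told apart. Macrophage markers were lower in 8 of 11 tested genes and summed to 464 to 546 FPKM in heat-adapted and 551 to 565 FPKM in heat-sensitive libraries, with the highest mean for CTSS, the protease cathepsin S (difference -0.11). B cell markers were lower in 12 of 13 and summed to 13466 to 20744 FPKM in heat-adapted and 28312 to 31767 FPKM in heat-sensitive libraries, mostly the immunoglobulin light chain gene IGLL1 (difference -0.81). The sums of both lists did not overlap between the breeds, as was the case for TLR2A, TLR4 and the surface receptors. After rescaling to TPM the macrophage sums overlapped, as did TLR4 and the surface receptors, while the B cell sums and TLR2A did not. With median of ratios the macrophage sums overlapped as well, and TLR4 and the surface receptors did not. T cell markers were lower in 14 of 16, with sums of 588 to 769 FPKM in heat-adapted and 614 to 947 FPKM in heat-sensitive libraries, and CD3D, a part of the T cell receptor complex, differed by -0.050. Of 3 granulocyte markers tested all were lower, and of the 5 in the file 4 were lower. MPO, below the filter, lay the other way, at 0.06, 0.2 and 0.19 FPKM in the heat-adapted libraries, against 0.07, 0.03 and 0 FPKM in the heat-sensitive ones. Its difference was 0.15 (limma adjusted p = 0.315 in the fit without a filter). The sums of the list were 33.4 to 115 FPKM in heat-adapted and 82.3 to 259 FPKM in heat-sensitive libraries. Avidin (AVD, difference -0.81), which other cells also make, had the highest mean of them, but the lipocalin EXFABP was above it in heat-sensitive replicate 1. Smooth muscle markers were lower in 10 of 10, with sums of 168 to 456 FPKM in heat-adapted and 420.3 to 952 FPKM in heat-sensitive libraries, led by ACTG2 (difference -1.20). Enterocyte markers were higher in 14 of 17, led in level by APOA1 (difference 0.58). None of the markers in the file was at 0 in all libraries. None of these marker genes passed after adjustment, and the part of cell makeup in the receptor values was not tested.

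Some libraries held the extremes in FPKM of both receptors and markers. Total FPKM was 805203 in heat-adapted replicate 1 and 893271 to 898136 in the heat-sensitive libraries, so such extremes depend on scaling. Heat-adapted replicate 1 held the lowest value of 7 of the 10 genes (TLR1A, TLR1B, TLR2A, TLR4, TLR5, TLR7 and TLR15). For TLR15 it was tied with heat-adapted replicate 3, at 0.4 FPKM. It also held the lowest macrophage, T cell and smooth muscle sums and the highest enterocyte sum. After rescaling to TPM or by median of ratios, the lowest TLR2A, TLR15 and macrophage values were in heat-adapted replicate 3. The lowest T cell sum was then in a heat-sensitive library, at 687 in TPM, against 731 for the lowest heat-adapted one. Heat-sensitive replicate 1 was highest in TLR1A, TLR1B, TLR2B and TLR7, and also in the B cell and T cell sums. Heat-sensitive replicate 2 was highest in TLR2A, TLR4, TLR5 and TLR15, and lowest in TLR3, TLR2B and the enterocyte sum. Within the heat-sensitive group, that library also had the lowest macrophage and T cell sums, at 551 and 614 FPKM. Heat-sensitive replicate 3 held no extreme of the 10 genes, but had the highest macrophage, granulocyte and smooth muscle sums, at 565, 259 and 952 FPKM. In TPM the highest macrophage sum was in a heat-adapted library, at 701, against 633 for the highest heat-sensitive one. Receptor and marker extremes thus did not always fall in the same library.

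**Figure D5:**
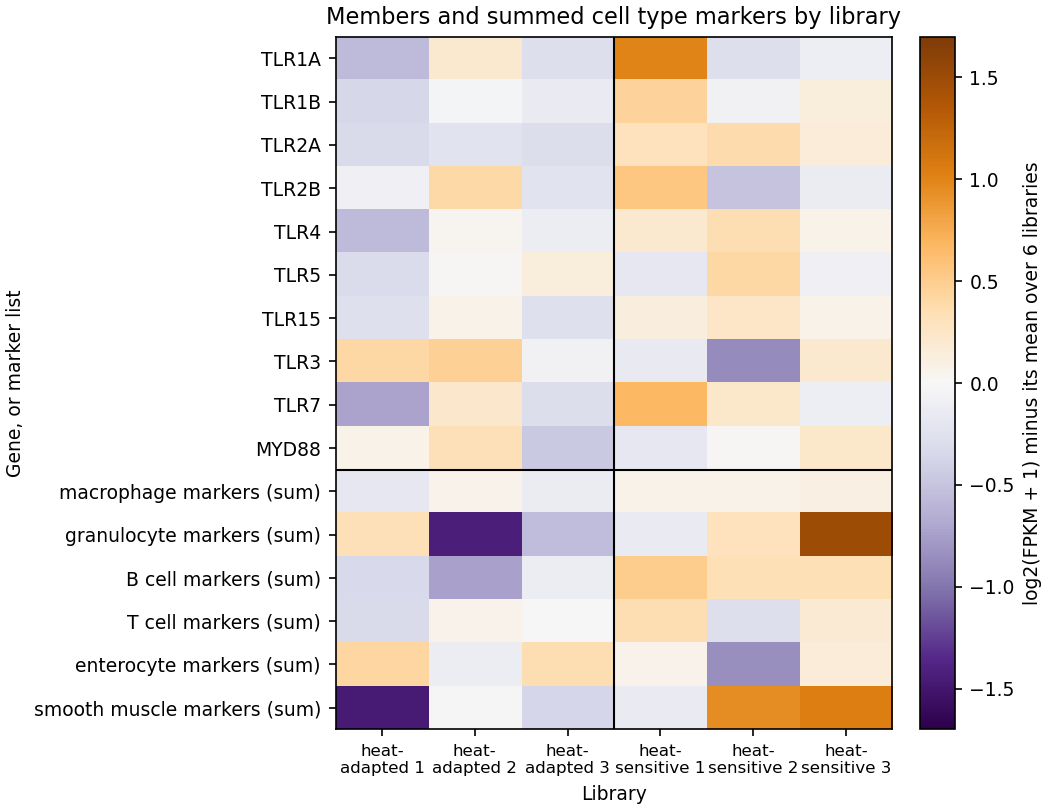
Log2(FPKM + 1) minus its mean over the 6 libraries, for each of the 10 genes (top) and for the summed FPKM of 6 marker lists (bottom), heat-adapted libraries left of the black line. TLR2A, TLR4, TLR15 and the B cell and macrophage sums are lower in the heat-adapted libraries without overlap. After rescaling to TPM, TLR4, TLR15 and the macrophage sums overlap, the macrophage sums also with median of ratios. TLR3 is lowest in heat-sensitive replicate 2, where the enterocyte sum is also lowest.

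Genes with the pattern most like those of MYD88 and TLR3 over the 6 libraries were found by Pearson's r of log2(FPKM + 1) among all genes tested. For MYD88 they were MLF2 (r = 0.992), LXN, the carboxypeptidase inhibitor latexin (r = 0.981), and ITFG1 (r = 0.974), and 19 genes had an r of at least 0.95. MLF2 stood at 88.65, 97.04 and 77.11 FPKM in the heat-adapted libraries, against 83.32, 90.22 and 93.58 FPKM in the heat-sensitive ones, with the same highest and lowest library as MYD88. For TLR3 they were AGMO, an enzyme that cleaves ether lipids (r = 0.992), CALCOCO2, a receptor of selective autophagy (r = 0.988), and C1GALT1C1, a chaperone of mucin-type glycosylation (r = 0.987), and 85 genes had an r of at least 0.95. AGMO stood at 82.9, 78.7 and 55.47 FPKM in the heat-adapted libraries, against 49.84, 32.28 and 70.63 FPKM in the heat-sensitive ones. These values of r are the highest among all genes tested, over only 6 libraries in 2 groups, and are descriptions.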

How the data were processed

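The submitters' processing notes name the trimmer cutadapt 1.9.1, the aligner HISAT2 2.0.1, the counter HTSeq 0.6.1, and DESeq2, with genome build GRCg6a. Strand and the treatment of shared reads are not given in those notes. The authors deposited FPKM values rounded to 2 decimals and estimated counts, of which 13.2% to 13.7% per library are not whole. The deposited estimated counts were used for library totals and a check of row order only (rho of -0.0048 over rows, Spearman). The planned unit FPKM was kept, and no count model was run. Left out were 19 rows with a date in place of the symbol and 1 row with neither.

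For genes whose mean FPKM was at least 1, log2(FPKM + 1) was fitted in R 4.3.3 by limma 3.58.1 (eBayes, trend and robust), 2-sided, with Benjamini-Hochberg adjustment over all genes tested and a threshold of 0.05. The log2(FPKM + 1) scale understates changes of low genes. The fit was tested on simulated data. Groups came from the sample titles. The members and gene lists were chosen with earlier results of these data known. Named from the pathway lists are the 3 genes of smallest p each, and from the marker lists the gene of highest mean FPKM. Others were named by role or after their values were seen. Of the 10 symbols, RefSeq's table for GRCg7b, another build, held 9 directly and 1 as a synonym; it was used for names and neighbours only. Alternatives covered the pseudocount, the filter, scaling, the variance model, a replicate block and each library left out.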

Additional observations from a re-analysis of the deposited data

How the results depend on the processing

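No receptor, MYD88 or pathway gene passed an adjusted p of 0.05 by limma under any of 14 other settings. For the members, 103 of 110 alternative values kept their direction and side of the threshold. The exceptions were TLR5 and MYD88. Changes of the filter, the replicate block and the variance model leave the log2 difference of a member as it was, so its direction could not turn there. TLR2B and TLR15 were fitted only without a filter, so their value was compared with itself. The 110 also include the fits of the summed pairs, TLR1A with TLR1B and TLR2A with TLR2B, which lie outside the 14 settings. The count of 103 therefore overstates how far direction was put to the test. TLR5 differed by 0.057 with quantile normalization and by -0.22 to 0.079 with each library left out in turn. MYD88 differed by 0.073 after rescaling to TPM, by 0.032 with median of ratios and by -0.22 to 0.18 with each library left out in turn. TLR2A ranged from -0.71 with a pseudocount of 0.1 to -0.43 with quantile normalization, with adjusted p between 0.132 and 0.439. Rescaling to TPM moved the median of all genes by 0.11 on the log2 scale, and relative to that median TLR2A was at -0.50 before and -0.53 after, TLR3 at 0.60 and 0.62. After that rescaling the list medians were 0.12 for proteins that fold, carry or help the receptors and -0.030 for adaptors and kinases. They were 0.086 for genes that restrain the pathway and 0.16 for NF-kappaB subunits and induced genes. The first and the third of these medians turned positive. The first list also held TLR21, SIGIRR and RNF170.

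Over all genes, 7 were called higher and 4 lower. These counts were 4 and 2 with no filter, 24 and 14 with TPM, and 11 and 9 with median of ratios. Lower calls were 8 with a pseudocount of 0.1 and 1 with a mean FPKM of at least 5. With 1 library left out they ranged from 4 to 25 higher and from 2 to 39 lower, the most without heat-adapted replicate 3. With the replicate block they were 22 and 24, and TLR2A had an adjusted p of 0.266 under the block. Same-numbered libraries did not deviate together (r = -0.16, 0.11 and -0.19), so the numbers were not taken as pairs. The cause of these shifts was not tested. The depth behind each FPKM is unknown, so no counting error can be given for TLR2B, TLR15 and TLR5, the lowest of the 10.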

Other observations

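Of the genes the pathway switches on, 3 below a mean FPKM of 1 also lay apart between the breeds and were picked after their values were seen. IL10 and IL17F, the others of that list below this mean, overlapped, with differences of -0.063 and 0.090. The share of all such low genes that lay apart was not computed, so the 3 cannot be set against a background. IL6, a cytokine of acute inflammation, stood at 0.25, 0.29 and 0.32 FPKM in the heat-adapted libraries, against 0.76, 0.8 and 0.65 FPKM in the heat-sensitive ones, with a log2 difference of -0.43 (SE 0.08, limma adjusted p = 0.141 in the fit without a filter). CD86, which antigen-presenting cells use to stimulate T cells, stood at 0.47, 0.71 and 0.68 FPKM in the heat-adapted libraries, against 1.2, 1.1 and 0.92 FPKM in the heat-sensitive ones (difference -0.36, SE 0.12, limma adjusted p = 0.253). IL12B, a cytokine subunit, was listed at 0.03 FPKM in each heat-adapted and 0.06 FPKM in each heat-sensitive library (difference -0.041, limma adjusted p = 0.625). These values lie close to the rounding step of the deposited FPKM. CSF3R and EXFABP were likewise picked after their values were seen. They were the 2 of 3 tested granulocyte markers that were lower without overlap, where 12.9% of all genes tested were. AVD, and S100A9 below the filter, overlapped. The receptor CSF3R stood at 4.59, 6.87 and 5.69 FPKM in the heat-adapted libraries, against 8.92, 9.67 and 10.71 FPKM in the heat-sensitive ones (difference -0.69, SE 0.17, limma adjusted p = 0.12). EXFABP, a lipocalin that binds bacterial siderophores, stood at 3.59, 6.07 and 5.45 FPKM in the heat-adapted libraries, against 40.7, 16.13 and 38.23 FPKM in the heat-sensitive ones (difference -2.35, SE 0.34, limma adjusted p = 0.0589). MPO, of the same marker list, lay the other way, as given above. None of the genes named here passed after adjustment.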
